A study of Mus musculus with 8 samples.

Results

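The interaction of db-cAMP and receptor genotype is the difference between 2 responses: the change that db-cAMP caused in CD4 T cells lacking the IFN-γ receptor 1 chain, minus the change it caused in wild-type (WT) CD4 T cells. It was computed for every gene from all 8 arrays of the series, as (KO db-cAMP minus KO vehicle) minus (WT db-cAMP minus WT vehicle) on a log2 scale. Each gene was represented by 1 probe set with a single gene symbol, the one with the highest mean over the 8 arrays. This gave 18193 genes, of which 12091 were bright enough to test and 6102 were set aside as dim. Genes were not chosen by the contrast, but a gene had to be above the array median on at least 2 of the 8 arrays. A gene could thus pass only through the group where it was high. A positive interaction means that the KO effect lies above the WT effect, and a negative interaction that it lies below it.

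The 4 groups held 2 arrays each: WT cells with vehicle, WT cells with db-cAMP, IFN-gR1 KO cells with vehicle and IFN-gR1 KO cells with db-cAMP. All cells were CD4 T cells purified by autoMACS from spleens of mice aged 8 weeks and activated with anti-CD3 and anti-CD28 for 15 h, and db-cAMP or vehicle was present for the last 3 h. The labels give neither strain nor sex nor the db-cAMP dose, and they do not say whether the 2 samples of a group came from separate mice or cultures. The titles call the 2 samples of each group biological replicates, without saying what was replicated. Each p-value thus rests on the variation within such pairs, and how far this covers variation between mice is unknown. The free-text descriptions of the KO samples call the cells WT, against their titles, source names and genotype entries, and the latter were followed here.

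db-cAMP (dibutyryl-cAMP) is a form of cyclic AMP that enters cells and activates protein kinase A, which phosphorylates CREB-family factors that bind cAMP response elements. In T cells cAMP signalling is known for damping activation through the T cell receptor. IFN-γ binds a receptor made of the IFNGR1 and IFNGR2 chains, which carry the kinases JAK1 and JAK2, and these activate STAT factors that bind gamma-activated sites. Among the genes induced this way are interferon regulatory factors, which bind interferon-stimulated response elements, guanylate-binding proteins, immunity-related GTPases and the machinery of MHC class I antigen processing. Activated CD4 T cells can make IFN-γ themselves and carry its receptor.

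Promoter windows of 8 genes are shown because their interactions, described below, were among those called and because they hold the letters these pathways are known for. Each window runs from 250 bases before to 50 bases after the RefSeq start site (build GRCm38.p6), 5′ to 3′, with motif matches in capitals. The motifs searched on both strands were TTCNNNGAA (gamma-activated site), GAAA followed after any 2 bases by GAAA (interferon-stimulated response element) and TGACGTCA (cAMP response element). Igtp (chr11:58199306-58199605, + strand) holds a gamma-activated site starting at -45 and an interferon-stimulated element starting at -34. Irgm1 (chr11:48871371-48871670, - strand) holds 2 overlapping interferon-stimulated elements starting at -30 and -24, and Gbp2 (chr3:142620413-142620712, + strand) holds 1 on the reverse strand at -59. Irf1 (chr11:53769764-53770063, + strand) and Samhd1 (chr2:157135047-157135346, - strand) hold a gamma-activated site at -90 and -235, and Irf8 (chr8:120736108-120736407, + strand) holds 2 at -171 and -153. Btg2 (chr1:134079106-134079405, - strand) and Dusp1 (chr17:26508423-26508722, - strand) hold a cAMP response element at -166 and -143. RefSeq gives Irf1 and Irf8 1 other start site each, whose windows hold none of the motifs and are not printed.
Igtp: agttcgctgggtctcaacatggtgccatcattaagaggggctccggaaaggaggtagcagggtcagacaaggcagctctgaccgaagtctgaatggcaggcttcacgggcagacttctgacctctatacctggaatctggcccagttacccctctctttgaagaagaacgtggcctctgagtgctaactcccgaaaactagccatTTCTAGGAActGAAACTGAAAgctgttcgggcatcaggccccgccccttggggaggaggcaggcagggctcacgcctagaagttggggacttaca
Irgm1: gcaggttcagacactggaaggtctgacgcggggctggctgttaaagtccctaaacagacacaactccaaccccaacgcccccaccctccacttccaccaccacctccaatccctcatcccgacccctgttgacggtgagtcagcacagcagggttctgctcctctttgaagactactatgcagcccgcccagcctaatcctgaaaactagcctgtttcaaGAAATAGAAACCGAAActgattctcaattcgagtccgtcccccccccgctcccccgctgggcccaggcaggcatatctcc
Gbp2: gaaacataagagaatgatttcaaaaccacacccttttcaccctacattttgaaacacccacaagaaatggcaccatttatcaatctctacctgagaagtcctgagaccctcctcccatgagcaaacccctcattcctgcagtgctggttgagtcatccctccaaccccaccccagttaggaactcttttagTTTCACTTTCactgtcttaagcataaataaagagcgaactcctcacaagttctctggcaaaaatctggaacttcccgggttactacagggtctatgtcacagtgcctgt
Irf1: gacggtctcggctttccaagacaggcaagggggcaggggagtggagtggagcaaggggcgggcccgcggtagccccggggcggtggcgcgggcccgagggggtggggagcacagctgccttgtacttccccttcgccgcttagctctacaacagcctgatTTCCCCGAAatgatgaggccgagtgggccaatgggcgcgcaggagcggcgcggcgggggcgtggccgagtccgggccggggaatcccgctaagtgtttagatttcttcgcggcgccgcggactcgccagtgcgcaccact
Irf8: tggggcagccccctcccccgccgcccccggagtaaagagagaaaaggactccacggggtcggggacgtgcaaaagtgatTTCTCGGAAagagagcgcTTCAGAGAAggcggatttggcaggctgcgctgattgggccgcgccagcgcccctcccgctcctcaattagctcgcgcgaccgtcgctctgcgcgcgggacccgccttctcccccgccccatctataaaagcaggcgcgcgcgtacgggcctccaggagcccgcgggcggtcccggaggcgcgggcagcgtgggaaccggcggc
Samhd1: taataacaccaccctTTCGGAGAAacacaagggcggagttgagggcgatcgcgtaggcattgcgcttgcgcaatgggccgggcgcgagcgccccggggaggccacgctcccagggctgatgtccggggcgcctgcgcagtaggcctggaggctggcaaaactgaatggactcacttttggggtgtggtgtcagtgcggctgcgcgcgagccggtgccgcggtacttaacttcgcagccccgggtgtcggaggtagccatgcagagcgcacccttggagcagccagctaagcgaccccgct
Btg2: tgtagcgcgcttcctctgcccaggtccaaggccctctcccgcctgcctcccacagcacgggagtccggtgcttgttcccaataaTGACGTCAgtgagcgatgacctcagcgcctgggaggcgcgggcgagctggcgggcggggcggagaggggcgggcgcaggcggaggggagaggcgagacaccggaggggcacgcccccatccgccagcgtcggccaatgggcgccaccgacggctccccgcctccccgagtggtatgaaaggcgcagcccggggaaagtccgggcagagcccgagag
Dusp1: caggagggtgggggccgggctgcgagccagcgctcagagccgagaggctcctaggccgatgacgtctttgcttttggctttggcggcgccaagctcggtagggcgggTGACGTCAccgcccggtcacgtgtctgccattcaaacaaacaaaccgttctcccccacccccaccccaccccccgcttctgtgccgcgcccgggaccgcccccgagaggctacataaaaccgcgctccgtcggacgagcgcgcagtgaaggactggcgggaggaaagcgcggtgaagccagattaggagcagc

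Promoter windows were found for 9790 of the 12091 genes tested (12452 windows). A gamma-activated site was present in 6.8% of all these windows, an interferon-stimulated element in 3.05% and a cAMP response element in 2.92%. In windows of genes whose interaction was called lower the shares were 7.51%, 4.5% and 3.45% of 666, and in windows of genes called higher they were 7.48%, 2.97% and 2.85% of 842. Of the 49 windows of IFN-γ induced genes from the lists used below, 22.4% held a gamma-activated site and 26.5% an interferon-stimulated element, and none held a cAMP response element. Among the 23 windows of those called lower the shares were 26.1% and 30.4%. The cAMP response element was found in 2 of the 13 windows of cAMP target genes called lower (15.4%), those of Btg2 and Dusp1, and in 5.56% of the 36 windows of all cAMP target genes tested. A match describes letters in a window, not a bound site.

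Loss of the receptor chain went with a smaller response to db-cAMP in both directions. At an adjusted p under 0.05 (limma, Benjamini-Hochberg over all genes tested) the interaction was called for 1425 genes, 11.8% of those tested. Of these, 810 were called higher (6.7%) and 615 lower (5.09%), and 179 and 166 of them, respectively, differed by 2-fold or more. Of the 1425 genes, 1188 (83.4%) had estimates of the same sign in both genotypes with the larger one in WT. In 4 genes the signs were the same and the larger estimate was in KO cells: Cd274, Nr4a1, Osbpl8 and Sytl2, of which Cd274 kept its call with each array left out. The other 233 had estimates of opposite sign, and in 207 of these the WT estimate was the larger in size.

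Genes called higher were mostly genes that db-cAMP lowered in WT cells: their median WT effect was -0.93 and their median KO effect -0.23 (log2). Genes called lower were mostly raised in WT, with a median WT effect of 1.05 and a median KO effect of 0.28. The choice of called genes fixes this direction in part, so the same was read over genes chosen by the mean of the 2 effects. In this balanced design the estimate of that mean is uncorrelated with the estimate of the interaction. Both tests use the same variance estimate of a gene, so counts of called interactions among these genes are not independent of the choice. By that mean, 1922 genes were raised (15.9%) and 2110 lowered (17.5%). The effect was larger in WT for 1713 of the raised genes (89.1%) and for 1974 of the lowered genes (93.6%). Among raised genes the interaction was called with the larger effect in WT for 558 and with the larger effect in KO for 5. Among lowered genes these counts were 733 and 2.

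At genes chosen by the mean effect, the median difference between the genotypes was small under vehicle and larger under db-cAMP. For genes raised on average, the median KO minus WT difference was 0.05 (log2) under vehicle and -0.33 under db-cAMP. For genes lowered on average it was -0.05 under vehicle and 0.41 under db-cAMP. Of the 810 genes called higher, the KO minus WT difference was called for 153 under vehicle and for 722 under db-cAMP. Of the 615 called lower, the counts were 191 and 533, so that 31.1% of them differed under vehicle. The interaction is the genotype difference under db-cAMP minus that under vehicle. Choosing genes by it fixes the excess of calls under db-cAMP in part, and these counts add nothing to the medians. Counted alone, the effect of db-cAMP was called for 4233 genes in WT (35% of those tested) and for 1013 in KO cells (8.38%). The KO count fell to 459 without KO vehicle replicate 2 and to 477 and 444 without KO db-cAMP replicate 1 and 2.

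**Figure D1:**
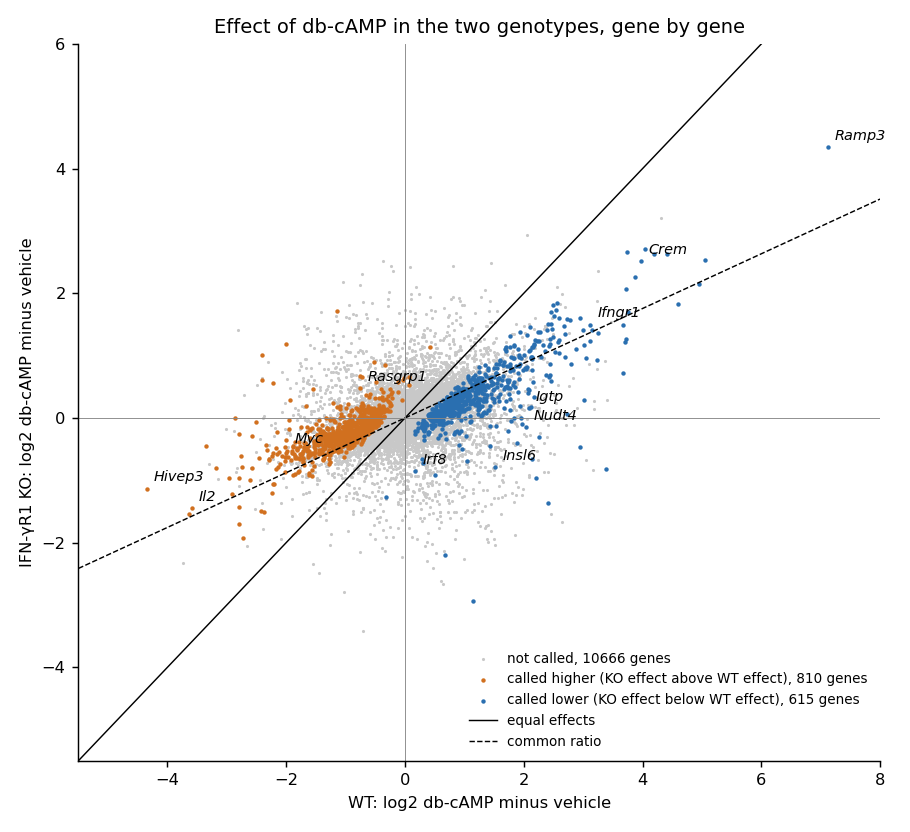
Log2 effect of db-cAMP (db-cAMP minus vehicle) for 12091 genes in WT cells (x axis) and IFN-γR1 KO cells (y axis), each the difference of 2 means of 2 arrays. Orange points are the 810 genes whose interaction was called higher, blue points the 615 called lower, grey points the rest; the solid line marks equal effects and the dashed line the common ratio of 0.439, and most called genes lie between the solid line and the x axis, among them the 1188 with the same sign and the larger effect in WT.

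A single ratio summarised the smaller response. Over the 4032 genes called for the mean effect (33.3%), the principal axis through the origin of the paired WT and KO effects had a slope of 0.439. Along that axis the KO change was 43.9% of the WT change on the log2 scale. On simulated data the slope over genes chosen in this way came out above the one simulated, so this slope may be too high. The slope was 0.495 over raised and 0.365 over lowered genes, 0.483 over the 498 genes with a mean change of 2-fold or more, and 0.413 over the 1724 called genes among the brightest 25%. Over all 12091 genes tested, not chosen by any effect, the slope was 0.344. Leaving out 1 array at a time gave slopes from 0.386 to 0.487. The spread of values over genes was alike in the 2 genotypes: the SD of the log2 values lay between 2.44 and 2.50 on every array.

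The count of called genes depended on how the spread was estimated. Without a trend of variance on intensity, 261 genes were called and 0 of the 1425 turned sign, and with the mean of all probe sets of a gene in place of the brightest, 709 were called and 73 of 1418 turned sign. Leaving out KO db-cAMP replicate 1 or replicate 2 left 892 genes each (495 and 494 higher, 397 and 398 lower), and leaving out KO vehicle replicate 2 left 538 higher.

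The IFN-γ receptor and its signalling chain were themselves among the genes with a smaller db-cAMP response in KO cells. Of 9 tested genes of IFN-γ receptor signalling, the interaction was called lower for 3 (Ifngr1, Ifngr2 and Jak2) and higher for 2 (Ptpn6 and Ptpn11), and the median interaction was -0.29 against 0.005 over all genes tested. Over all genes tested, 5.09% were called lower and 6.7% higher. Ifngr1, which encodes the ligand-binding chain, read 905 and 874 on the WT vehicle arrays, 7319 and 8201 with db-cAMP, 439 and 378 on the KO vehicle arrays and 1056 and 1272 with db-cAMP. Both KO signals with db-cAMP were above the WT vehicle signals and below the WT db-cAMP signals. The WT effect was 3.12 and the KO effect 1.496, an interaction of -1.62 ± 0.17 (SE; adjusted p = 4.22e-05, limma). Where the single Ifngr1 probe set lies in relation to the deletion or insertion is unknown here, and its KO signal therefore checks nothing about the genotype.

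Ifngr2, the signalling chain of the receptor, read 194 and 191 in WT with vehicle, 984 and 1041 with db-cAMP, 269 and 296 in KO with vehicle and 619 and 583 with db-cAMP. It had higher vehicle signals and lower db-cAMP signals in KO than in WT cells, without overlap, and its interaction was -1.29 ± 0.21 (adjusted p = 0.00127, limma). Jak2, the kinase bound to that chain, read 2887 and 3081 in WT with vehicle and 8296 and 7788 with db-cAMP, and in KO cells 3580 and 3443 with vehicle and 3828 and 4179 with db-cAMP. The KO signals with db-cAMP stayed close to those with vehicle, and the interaction was -1.24 ± 0.11 (adjusted p = 1.9e-05, limma). The phosphatases Ptpn6 (interaction 0.64) and Ptpn11 (0.40) had WT effects of -1.57 and -0.67 and KO effects of -0.93 and -0.27; the call for Ptpn11 was lost on leaving out any array but WT db-cAMP replicate 1. The call for Ptpn6 ended and its sign turned (-0.03) with the mean of its probe sets, 1 of which was called in each direction. Jak1 (-0.29), the inhibitor Socs1 (-0.47), Pias1 (0.02) and Ptpn2 (0.04) were not called. The cytokine gene Ifng read 1813 and 1369 in WT with vehicle, 521 and 504 with db-cAMP, 2209 and 2469 in KO with vehicle and 1015 and 1024 with db-cAMP. Its effect was -1.61 in WT and -1.19 in KO, and its interaction of 0.42 ± 0.18 was not called (adjusted p = 0.172, limma), except without WT vehicle replicate 2.

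Genes that IFN-γ induces were mostly raised by db-cAMP in WT cells. Over 5 lists of such genes together, 54 were tested, of which db-cAMP raised 35 and lowered 3 in WT cells (16.4% and 18.6% of all genes tested), and raised 6 and lowered 4 in KO cells (4.7% and 3.68%). The interaction was called lower for 26 and higher for 0 (limma), against 5.09% lower and 6.7% higher over all genes tested. The median WT effect was 0.57, the median KO effect 0.12 and the median interaction -0.51. At an unadjusted p under 0.05 the interaction passed for 35 of the 54, against 23.7% of all genes tested. The KO vehicle signals of many of these genes were well below the WT ones, so that a log2 change in KO cells was read at a lower level. All gene lists used here, these 5 among them, were chosen with earlier results of these data known. That choice may fix the counts of called members in part.

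Among the regulators, 3 of 9 tested interferon regulatory and STAT factors were called lower: Irf1, Irf8 and Stat3. Irf1, a transcription factor that acts early after IFN-γ, read 3994 and 4498 in WT with vehicle and 10180 and 10010 with db-cAMP. On the KO arrays it read 663 and 842 with vehicle and 869 and 787 with db-cAMP, so that the KO groups overlapped. The interaction was -1.11 ± 0.16 (adjusted p = 0.000561, limma). Irf8, whose promoter holds the pair of gamma-activated sites printed above, took a different course: 3813 and 3605 in WT with vehicle against 4113 and 4231 with db-cAMP, and 817 and 779 in KO with vehicle against 415 and 467 with db-cAMP. It changed little in WT (0.17) and was lower with db-cAMP in KO cells (-0.85), an interaction of -1.02 ± 0.13 (adjusted p = 0.000312, limma). Stat3, the STAT best known downstream of the IL-6 family, was raised in both (2.39 and 1.41), with an interaction of -0.98, a call that ended with the mean of its probe sets. The factors Irf9 (-0.46), Stat2 (-0.49) and Irf7 (-0.31) and Irf2 (-0.39), known as a repressor at interferon-stimulated elements, had negative estimates that were not called.

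All 5 tested guanylate-binding proteins, GTPases that attack the compartments of intracellular pathogens, were called lower, with interactions from -1.66 (Gbp6) to -0.78 (Gbp3). Gbp2 read 6960 and 8103 in WT with vehicle, 24290 and 25750 with db-cAMP, 480 and 384 in KO with vehicle and 606 and 678 with db-cAMP. Every KO signal lay below every WT signal by more than 10 times, and the interaction was -1.16 ± 0.16 (adjusted p = 0.000423, limma). Gbp6 read at most 66 on the KO arrays, near the array medians (56.2 to 70.5), so its KO effect of -0.13 comes from dim signals. The calls for Gbp3 and Gbp8 were lost without the filter on dim genes and in 6 of 8 sets with 1 array left out, where 3 of the 5 remained called: without either WT vehicle array, either WT db-cAMP array, KO vehicle replicate 2 or KO db-cAMP replicate 2.

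The immunity-related GTPases, which act on pathogen vacuoles in the same way, were called lower in 5 of 6 tested members, with a median interaction of -1.31. These 5 calls held with each array left out in turn. Igtp had the largest interaction of the 6: 12310 and 13170 in WT with vehicle, 50480 and 57600 with db-cAMP, 1811 and 1550 in KO with vehicle and 1662 and 2116 with db-cAMP. The KO signals with and without db-cAMP overlapped, and the interaction was -1.92 ± 0.16 (adjusted p = 1.24e-05, limma). Irgm1 was raised in WT (3161 and 3265 to 9335 and 8118) and not in KO cells (467 and 367 against 431 and 336), with an interaction of -1.56 ± 0.19. Irgm2 (-1.37) and Iigp1 (-1.25) followed, and the Iigp1 signals were 84.7 to 108 on all 4 KO arrays. Ifi47 had the brightest KO signals of the 5: 13800 and 13580 in WT with vehicle rose to 21770 and 22460, while 5712 and 5491 in KO with vehicle fell to 4246 and 4646. Both effects were called, in opposite directions (0.69 and -0.33), which held for 7 of all genes tested (0.0579%; 3, 3, 1 and 3 without each KO array in turn).

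In MHC class I antigen processing, 8 of 14 tested genes were called lower (5.09% over all genes tested), with smaller differences (median -0.38). Psmb9, a subunit of the immunoproteasome, read 4817 and 4622 in WT with vehicle and 8021 and 8266 with db-cAMP, and 922 and 1072 in KO with vehicle and 1001 and 1018 with db-cAMP. Its WT effect was 0.79 and its KO effect 0.02, an interaction of -0.76 ± 0.12 (adjusted p = 0.00137, limma). The peptide transporter genes Tap1 (-0.76) and Tap2 (-0.54), the loading factors Tapbpl (-0.65), Tapbp (-0.47), Pdia3 (-0.48) and Calr (-0.32) and the heavy chain H2-D1 (-0.42) completed the called genes. B2m (-0.20), H2-K1 (-0.35) and Psmb8 (-0.30) were not called, and Erap1 (0.22) and Psmb10 (0.09) had positive estimates. The count was 3 without KO db-cAMP replicate 1 or replicate 2, 4 without WT db-cAMP replicate 2, 5 without either WT vehicle array or KO vehicle replicate 2, 5 under quantile normalization and 2 with the mean of probe sets.

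Of 20 other IFN-γ induced genes, 5 were called lower: Cxcl10, Samhd1, Cd274, Parp14 and Dtx3l. Cxcl10, a chemokine that attracts CXCR3-bearing T cells, read 259 and 343 in WT with vehicle and 2215 and 1998 with db-cAMP, and 41.7 and 51.0 in KO with vehicle and 64.6 and 121 with db-cAMP. The KO signals lay at the dim end of the scale and the interaction was -1.93 ± 0.39 (adjusted p = 0.00583, limma). Samhd1, which depletes the nucleotides that viruses need, read 4415 and 3962 in WT with vehicle, 13500 and 13810 with db-cAMP, 1571 and 1615 in KO with vehicle and 1877 and 1980 with db-cAMP, an interaction of -1.43 ± 0.11. Cd274, which encodes the checkpoint ligand PD-L1, was the member with the larger change in KO cells: 1597 and 1532 in WT with vehicle against 1223 and 1276 with db-cAMP, and 1381 and 1402 in KO with vehicle against 595 and 555 with db-cAMP. The vehicle signals of the genotypes were close and only the KO db-cAMP pair stood apart, an interaction of -0.94 ± 0.14 (adjusted p = 0.000672, limma). The calls for Parp14 and for Dtx3l (-0.90 and -0.76) were at adjusted p = 0.0335 and 0.0194, and that for Parp14 was lost on leaving out either WT vehicle array, WT db-cAMP replicate 1, KO vehicle replicate 2 or either KO db-cAMP array. Of 17 genes better known from type I interferon, 3 were called lower (Ifit1 -2.95, Usp18 -1.74 and Ifit2 -0.87) and 0 higher (4 of 17 at an unadjusted p under 0.05, a share close to the 23.7% over all genes tested), with a median of -0.33. Ifit1 was below the median on 5 of 8 arrays, the calls for Ifit1 and Ifit2 each ended in 6 of 8 sets with 1 array left out, and that for Usp18 ended without KO vehicle replicate 2 or KO db-cAMP replicate 1.

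**Figure D2:**
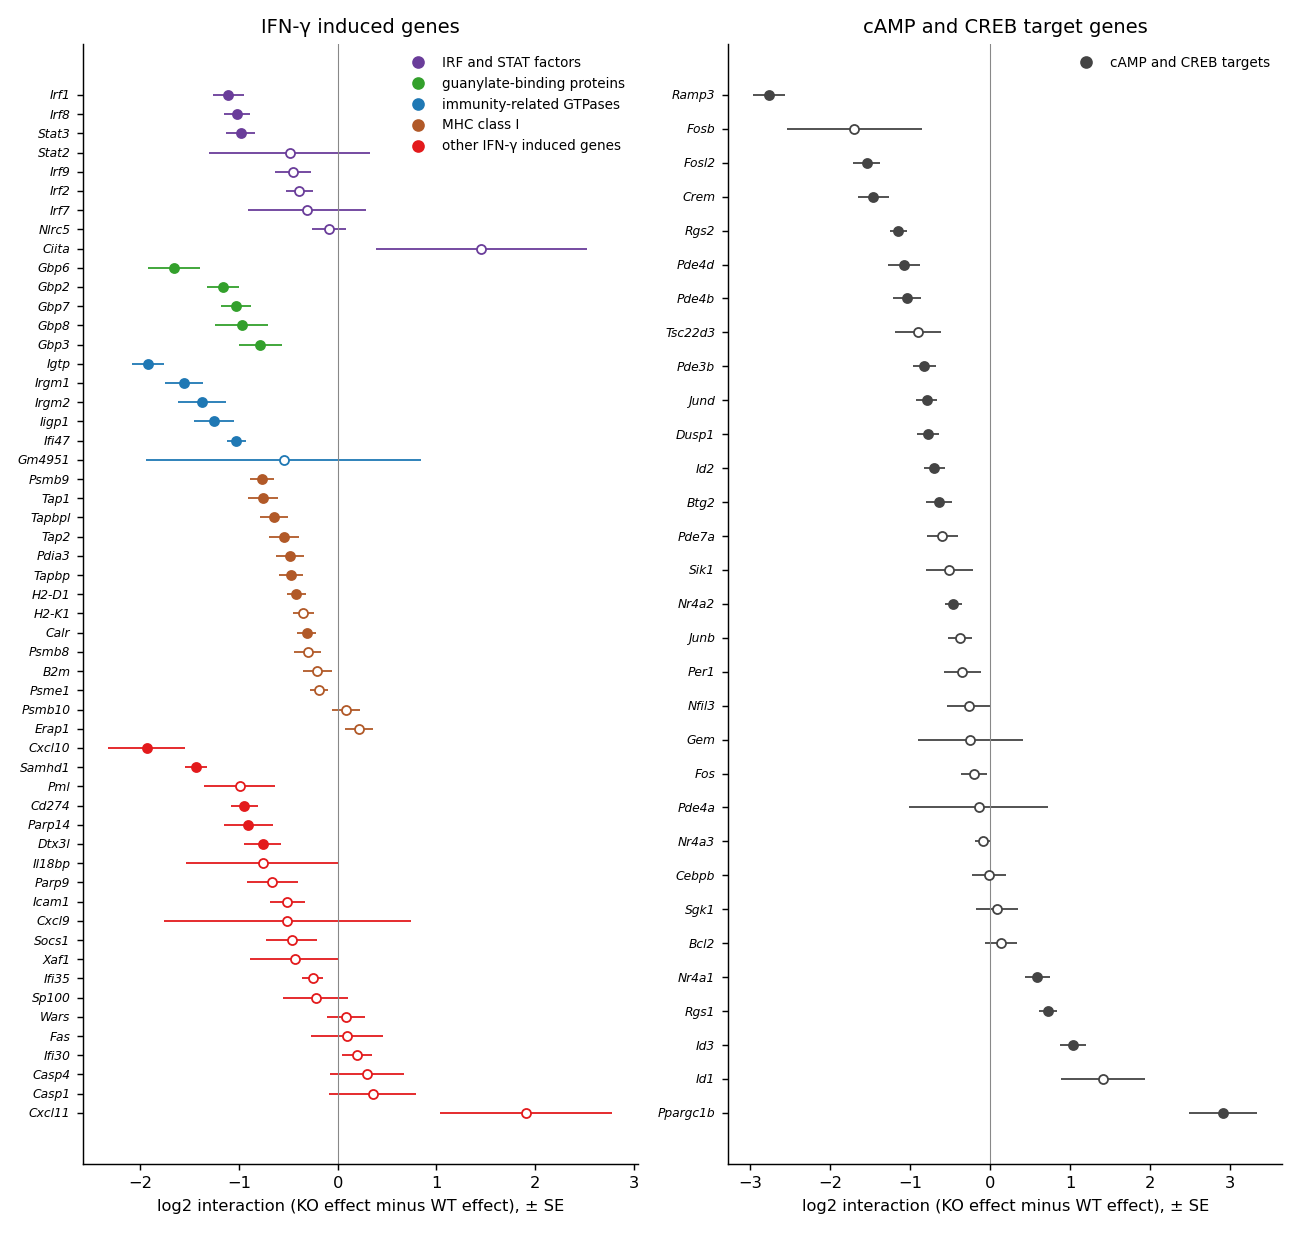
Log2 interaction (KO effect minus WT effect) ± SE for the tested genes of 5 lists of IFN-γ induced genes (left) and for tested cAMP and CREB target genes (right). Filled points were called and open points were not; on the left 26 of 54 genes were called lower and 0 higher, on the right 12 of 31 lower and 4 higher.

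The list of cAMP and CREB target genes, likewise chosen with earlier results of these data known, also included members raised less in KO cells. That its members are direct targets in these cells was not tested. Of 31 tested, 12 were called lower and 4 higher (5.09% lower and 6.7% higher over all genes tested). The median effect was 1.04 in WT and 0.66 in KO, and the median interaction -0.46. Ramp3, which encodes a receptor activity-modifying protein for calcitonin-family receptors, read 249 and 180 in WT with vehicle and 29410 and 30890 with db-cAMP. On the KO arrays it read 351 and 457 with vehicle and 8224 and 8314 with db-cAMP. It was raised 139-fold in WT and 20.4-fold in KO, an interaction of -2.77 ± 0.20 (adjusted p = 3.96e-06, limma). Crem, a CREB-family factor whose inducible form represses CREB targets, read 1336 and 1241 in WT with vehicle, 23700 and 17500 with db-cAMP, 860 and 1122 in KO with vehicle and 5544 and 5764 with db-cAMP, an interaction of -1.46 ± 0.19 (adjusted p = 0.000333, limma). In both genes the KO db-cAMP arrays lay far above vehicle and far below WT with db-cAMP. Of the 4 tested Crem probe sets 2 were called lower, with interactions from -1.64 to -0.05 over the 4.

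Among the phosphodiesterase genes, whose products degrade cAMP, Pde4d (interaction -1.07), Pde4b (-1.03) and Pde3b (-0.82) were called lower and Pde4a (-0.14) and Pde7a (-0.60) were not called. With the mean of probe sets Pde4d turned to 0.33 and the call for Pde4b ended. Fosl2 (-1.54), Rgs2 (-1.15), Jund (-0.80), Id2 (-0.70) and Nr4a2 (-0.46; call lost without KO db-cAMP replicate 1) were also called lower. Btg2, an antiproliferative factor, read 1001 and 834 in WT with vehicle and 2381 and 2480 with db-cAMP, against 1484 and 1217 and then 2368 and 2228 in KO. Its db-cAMP signals were close in the genotypes, and the interaction of -0.63 ± 0.16 (adjusted p = 0.0225, limma) came with higher KO signals under vehicle; the call ended without WT vehicle replicate 2, WT db-cAMP replicate 2, KO vehicle replicate 1 or either KO db-cAMP array. Dusp1, a phosphatase of MAP kinases, read 965 and 905 in WT with vehicle and 2875 and 3100 with db-cAMP, against 1180 and 1013 and then 2056 and 2013 in KO (interaction -0.78 ± 0.14, adjusted p = 0.00275). The targets Nr4a3 (-0.10), Fos (-0.20), Nfil3 (-0.27) and Per1 (-0.35) were not called.

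The 4 members called higher were Ppargc1b, Id3, Rgs1 and Nr4a1. The first 3 were lowered by db-cAMP in WT cells, with smaller KO effects (Id3 -2.23 in WT and -1.20 in KO). Nr4a1, an immediate early orphan receptor, read 3445 and 4245 in WT with vehicle, 4483 and 3591 with db-cAMP, 5799 and 5384 in KO with vehicle and 8723 and 8904 with db-cAMP. The WT groups overlapped and the KO groups did not, an interaction of 0.59 ± 0.16 (adjusted p = 0.0273, limma), a call that ended without WT vehicle replicate 2, WT db-cAMP replicate 2 or any 1 KO array. Among 24 tested components of cAMP signalling itself, 2 were called lower, the stimulatory G protein Gnas (-0.45) and the regulatory subunit Prkar1a (-0.32), and 1 higher, the prostaglandin E2 receptor Ptger2 (1.38), with a median of 0.02; 3 of 24 is close to the 11.8% called over all genes tested. The call for Prkar1a was lost on leaving out any array but WT db-cAMP replicate 1. Creb1 (0.04), Crebbp (0.12) and the catalytic subunits Prkaca (-0.27) and Prkacb (0.21) were not called.

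**Figure D3:**
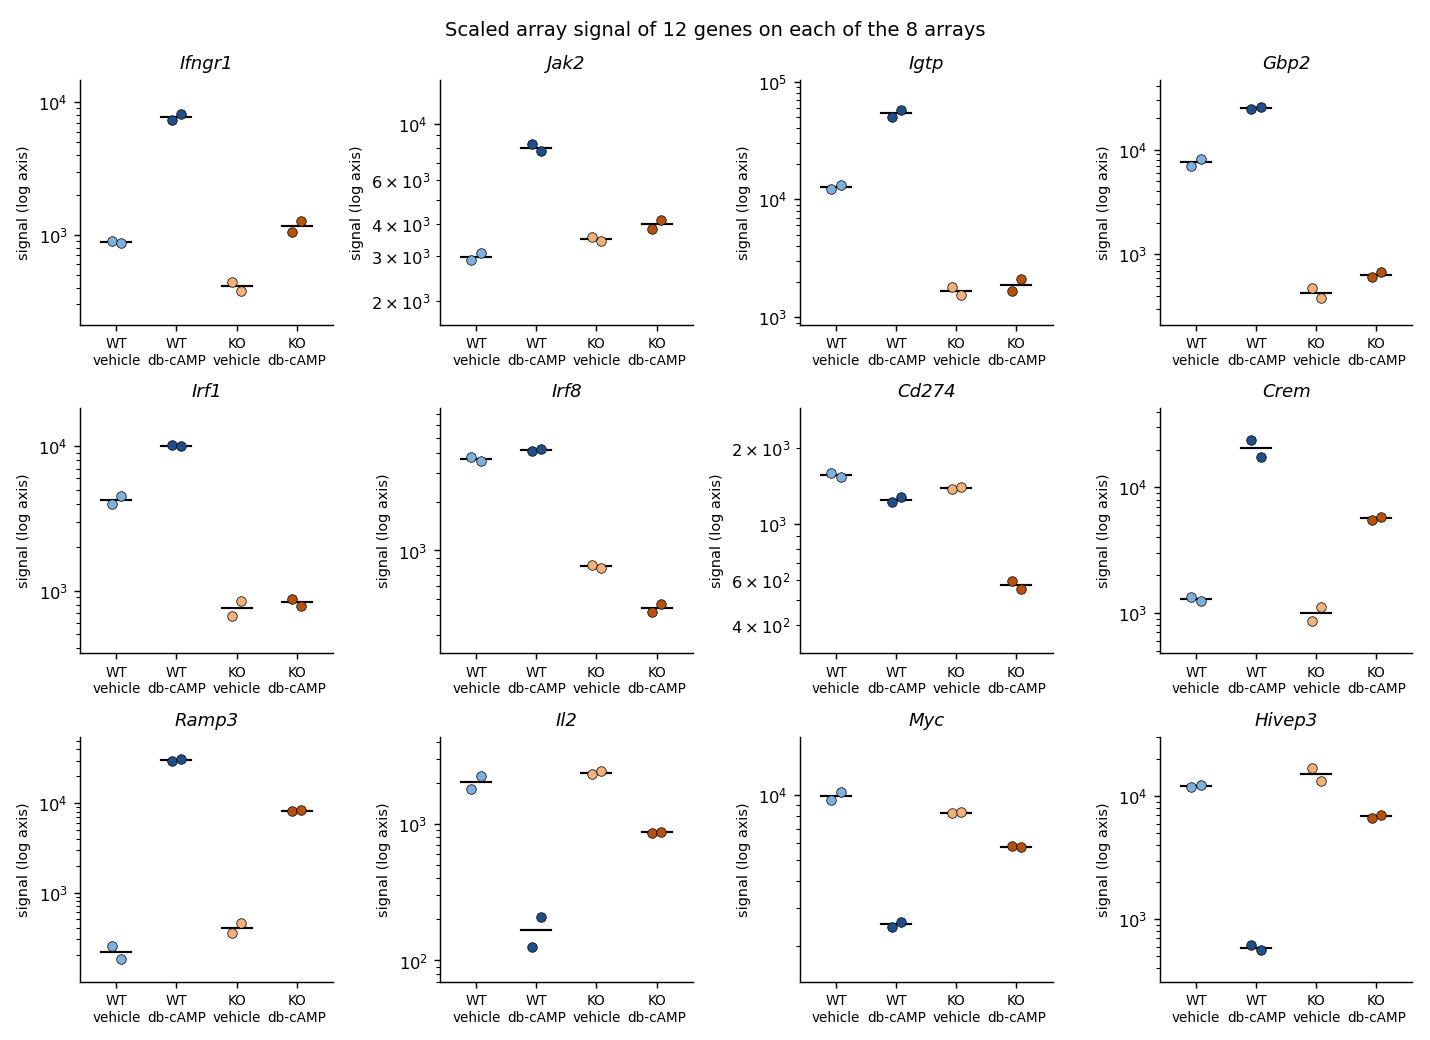
Signal of 12 genes on each of the 8 arrays (log axis, each panel with its own range), with the 2 arrays of a group as points and their mean as a line. Ifngr1, Crem and Ramp3 rose with db-cAMP in both genotypes and further in WT, Igtp and Irf1 rose in WT cells, and Il2, Myc and Hivep3 fell further in WT.

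A majority of the T cell activation genes tested were lowered less by db-cAMP in KO cells. Of 29 tested, 16 were called higher, 3 lower and 10 in neither direction (6.7% higher and 5.09% lower over all genes tested), with a median WT effect of -1.45, a median KO effect of -0.56 and a median interaction of 0.64. Il2, the growth factor of activated T cells, read 1815 and 2250 in WT with vehicle and 126 and 210 with db-cAMP, and 2327 and 2426 in KO with vehicle and 864 and 872 with db-cAMP. The vehicle signals of the genotypes were close, whereas the KO db-cAMP signals were at least 4 times the WT ones, an interaction of 2.15 ± 0.26 (adjusted p = 0.000176, limma). Egr3 (1.99) and Egr2 (1.69), factors induced by T cell receptor signalling, and the amino acid transporter Slc7a5 (1.56) followed. Myc, which drives growth after activation, read 9547 and 10400 in WT with vehicle and 2448 and 2587 with db-cAMP, against 8257 and 8370 and then 5798 and 5756 in KO. With db-cAMP it stood at 0.253 times its vehicle level in WT and 0.695 times in KO, an interaction of 1.46 ± 0.10 (adjusted p = 3.64e-06, limma).

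Lta (1.10), the chemokine genes Ccl3 (0.80), Ccl4 (0.94) and Xcl1 (0.71), Tfrc (1.22), Nfatc1 (0.91), Egr1 (0.94), Cd69 (0.70) and Il2ra (0.57) were among the others called higher. Tnf was lowered in both (-2.66 and -2.06) and its interaction of 0.59 ± 0.40 was not called (adjusted p = 0.412, limma), except without WT db-cAMP replicate 2. The 3 called lower were Tnfrsf18, Rel and Tnfrsf9, with WT effects of 1.33, 0.81 and 0.88 and KO effects of 0.59, 0.16 and 0.49. The calls for Rel and Tnfrsf9 were lost in 5 and 6 of the 8 sets with 1 array left out, with either KO db-cAMP array among them.

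Most ribosome biogenesis genes tested were also lowered less in KO cells. Of 39 tested, 28 were called higher, 0 lower and 11 in neither direction (6.7% higher over all genes tested), and 33 passed an unadjusted p under 0.05 (limma; 23.7% over all genes), with a median WT effect of -0.997, a median KO effect of -0.35 and a median interaction of 0.63. Rrp1b, which acts in processing of ribosomal RNA, read 4208 and 4048 in WT with vehicle and 662 and 571 with db-cAMP, against 3296 and 3471 and then 1944 and 1994 in KO. Its interaction was 1.96 ± 0.13 (adjusted p = 2.99e-06, limma). Gnl3 (1.55), the RNA polymerase I subunit Polr1b (1.38), Rrp12 (1.21) and Ppan (1.18) followed. The abundant nucleolar proteins Npm1 (-0.21), Fbl (-0.30) and Ncl (0.06) were not called. Of 26 genes for cytosolic ribosomal proteins, 0 were called in either direction by limma and 1 passed an unadjusted p under 0.05, and their median effect was 0.25 in WT and 0.07 in KO.

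Several genes of T cell quiescence and homing were raised less in KO cells. Of 25 tested, 10 were called lower and 3 higher (5.09% lower and 6.7% higher over all genes tested), with a median interaction of -0.31. Cxcr4, the receptor for CXCL12, read 176 and 167 in WT with vehicle and 3956 and 3600 with db-cAMP, against 242 and 231 and then 1432 and 1561 in KO. It was raised 21.4-fold in WT and 6.22-fold in KO, an interaction of -1.78 ± 0.17 (adjusted p = 2.98e-05, limma). Klf4 (-1.60), the cell cycle inhibitor Cdkn1b (-1.09), the egress receptor S1pr1 (-0.97), the lymph node homing receptor Ccr7 (-0.90), Tob1 (-0.88), Klf6 (-0.88), Klf2 (-0.68), Klf3 (-0.68) and Satb1 (-0.56) were the others called lower, with the call for S1pr1 lost without KO db-cAMP replicate 1. The 3 called higher, Slfn2 (1.13), Foxp1 (0.81) and Bach2 (0.74), were lowered by db-cAMP in WT cells, so in them too the WT change was the larger.

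Among 20 cytokine receptor genes 5 were called higher (Il12rb1, Il15ra, Tgfbr1, Il2ra and Il6st) and 2 lower, against 6.7% higher and 5.09% lower over all genes tested. Il12rb1, a chain of the IL-12 receptor, read 472 and 455 in WT with vehicle, 199 and 139 with db-cAMP, 153 and 163 in KO with vehicle and 158 and 152 with db-cAMP. The KO signals with and without db-cAMP overlapped and lay between the WT db-cAMP signals, an interaction of 1.42 ± 0.33 (adjusted p = 0.0132, limma), a call that ended without KO db-cAMP replicate 1. Ifnar1 (-0.99) and Tgfbr2 (-0.92) were called lower, the latter turning to 0.01 with the mean of its probe sets. In the JAK-STAT list 5 of 27 were called lower and 3 higher, to be read against the same shares over all genes tested. Socs3, a feedback inhibitor of cytokine receptors, read 309 and 398 in WT with vehicle, 2292 and 2263 with db-cAMP, 202 and 237 in KO with vehicle and 583 and 654 with db-cAMP (interaction -1.20 ± 0.21, adjusted p = 0.00252).

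Of 20 regulators and cytokines of helper subsets, 3 were called lower, namely Eomes (-1.32), Runx3 (-1.06) and Gata3 (-0.70), and 0 higher (6 at an unadjusted p under 0.05). Over all genes tested, 11.8% were called in either direction (5.09% lower) and 23.7% passed the unadjusted threshold. The shares called in either direction and passing unadjusted were thus not far from those of all genes. The call for Gata3 was lost in 6 of 8 sets with 1 array left out and that for Runx3 without KO db-cAMP replicate 2. Tbx21, the T helper type 1 factor, read 1414 and 1300 in WT with vehicle and 1343 and 1201 with db-cAMP, against 149 and 132 and then 112 and 124 in KO. It was lower in KO than in WT cells both with and without db-cAMP, and its interaction of -0.15 ± 0.22 was not called (adjusted p = 0.746, limma). Foxp3 was not called either (0.10 ± 0.34).

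The lists of other processes held 3 to 5 called genes each, to be read against 6.7% of all genes tested called higher and 5.09% called lower. Of 34 cell cycle genes, 3 were called higher (Ccnd2, Mcm3 and Cdk4) and 1 lower (Cdkn1b), with a median of 0.04. The 5 tested probe sets of Mcm3 disagreed, with interactions from -0.42 to 0.49 and 1 called. In glycolysis Hk2 (1.46) and Pdk1 (0.92) were called higher and Hif1a (-0.66) and Pfkp (-0.41) lower among 18 genes, with Hif1a turning to 0.07 with the mean of its probe sets. Of the 3 tested Pdk1 probe sets 1 was called, with interactions from 0.22 to 0.92 over the 3. In cholesterol synthesis Lss (0.88), Sqle (0.77) and Insig1 (0.54) were called higher among 21. In the stress response, Edem1 (-0.99), Eif2ak3 (-0.81), Xbp1 (-0.61) and Manf were called lower and Sdf2l1 (0.38) higher among 23. Of 17 apoptosis genes, Bid (1.41) and Bcl2l11 (0.72) were called higher and Fasl (-1.25) and Mcl1 (-0.45) lower. Among these genes Cdk4, Pfkp, Lss, Sqle, Insig1, Eif2ak3, Sdf2l1 and Mcl1 lost the call on leaving out at least 1 array, a KO array in each case.

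**Figure D4:**
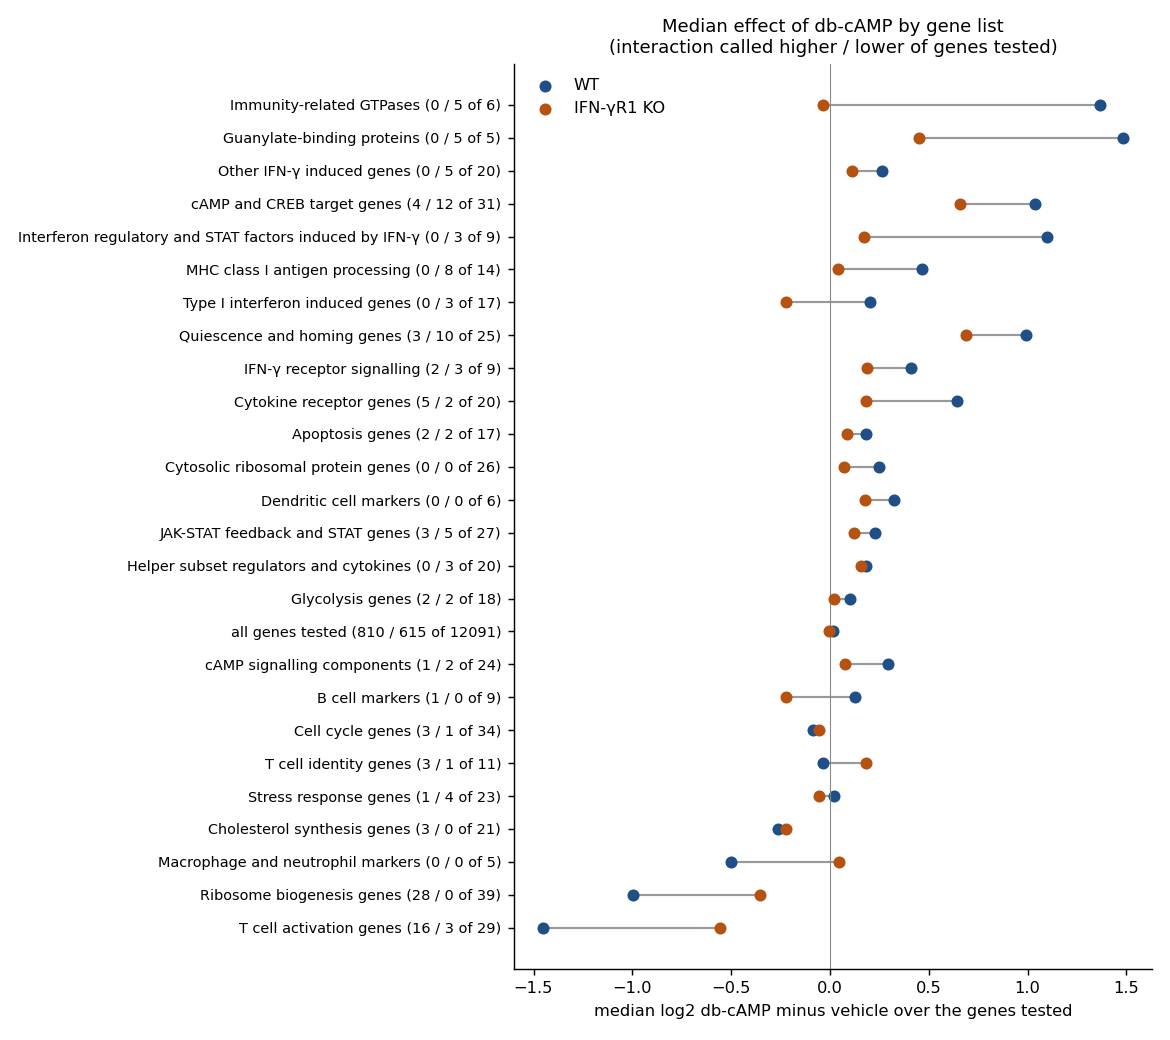
Median log2 effect of db-cAMP in WT (blue) and IFN-γR1 KO cells (orange) over the tested genes of each list with 5 or more of them, ordered by the median interaction; the numbers give the genes called higher and lower of those tested. The medians run from guanylate-binding proteins and immunity-related GTPases, raised in WT, to T cell activation genes, lowered in WT, and over all 12091 genes both medians are near 0.

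Because most interactions followed a smaller change in KO cells, each gene was also tested against that common ratio, as KO effect minus 0.439 times WT effect. This difference was called for 30 genes (0.248% of those tested), 21 higher (0.174%) and 9 lower (0.0744%), and 25 of the 30 were also called for the interaction. The count rests on the KO arrays: it was 4 without KO db-cAMP replicate 1, 6 without replicate 2, 12 and 11 without either KO vehicle array, and 0 without the intensity trend. With the slope over all genes, 0.344, 61 genes were called and 25 of the 30 remained. At an unadjusted p under 0.05 the difference passed for 8.75% of genes.

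The 9 genes called lower were Insl6 (-1.45), Cd274 (-1.13), Nudt4 (-1.04), Irf8 (-0.92), Igtp (-0.75), Ifi47 (-0.64), Got1 (-0.60), Fasl (-0.54) and Samhd1 (-0.48). The lists of IFN-γ induced genes hold 5 of them. The calls for Cd274, Irf8 and Nudt4 held with each array left out in turn, and those for Igtp, Fasl and Samhd1 ended with the slope over all genes. Nudt4, a hydrolase of inositol pyrophosphates, read 802 and 808 in WT with vehicle and 3294 and 3377 with db-cAMP, against 792 and 726 and then 655 and 717 in KO. The vehicle signals of the genotypes were close, and the KO signals with db-cAMP stayed below those with vehicle, an interaction of -2.19 ± 0.14 (adjusted p = 2.99e-06, limma). Fasl, the ligand of the death receptor Fas, was raised 2.43-fold in WT (2258 and 2148 to 5346 and 5354) and read 1876 and 2124 against 1996 and 2069 in KO. Got1, the cytosolic aspartate aminotransferase, read 3561 and 3471 against 6369 and 6192 in WT and 2560 and 2913 against 2187 and 2471 in KO.

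The 21 genes called higher included cAMP-raised genes whose KO effect lay above 0.439 times the WT effect: Rora (1.25), Ramp3 (1.22), Pde4d (1.02), Bend4 (0.98), Sytl2 (0.96), Vps37b (0.93), Adh1 (0.79), Cblb (0.66), P2ry10 (0.62), Stat4 (0.62), Ankrd44, Nr4a2, Satb1 and Nr4a3 had both effects above 0. The slope over raised genes alone was 0.495, so the pooled ratio of 0.439 made a higher call easier for raised genes. Unlike those for Cd274, Irf8 and Nudt4, no call among the 21 held with each array left out in turn, as all were lost without KO db-cAMP replicate 2. Rora, a nuclear receptor of helper and innate-like lymphocytes, read 141 and 169 in WT with vehicle and 408 and 444 with db-cAMP, against 228 and 198 and then 726 and 878 in KO. Its interaction was 0.45 and not called (adjusted p = 0.328, limma), and turned to -0.72 with the mean of its probe sets. Cblb, a ubiquitin ligase that restrains T cell activation, read 3164 and 3052 against 6553 and 6849 in WT and 3042 and 2994 against 6615 and 6791 in KO. At Cblb the 2 genotypes were close with vehicle and overlapped with db-cAMP, and its interaction was 0.04 ± 0.10. Stat4, which transmits IL-12 signals, read 1491 and 1566 against 8276 and 8666 in WT and 1277 and 1268 against 4024 and 4277 in KO, 5.53-fold and 3.25-fold.

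In 7 of the 21 the WT effect was below 0: Rasgrp1, Hivep3, Gramd1b, 1110032F04Rik, Bcl2l11, Slc7a1 and Stap1. Hivep3, a zinc finger factor of the Schnurri family, had the lowest adjusted p of the genes named: 11920 and 12280 in WT with vehicle fell to 615 and 561, while 16910 and 13370 in KO with vehicle fell to 6600 and 7095. The interaction was 3.22 ± 0.14 (adjusted p = 9.3e-08, limma). Its 5 tested probe sets disagreed, with interactions from -1.80 to 3.22 and 2 called higher, and the difference from the common ratio turned to -0.05 with their mean. It was named for the brightest of them.

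**Figure D5:**
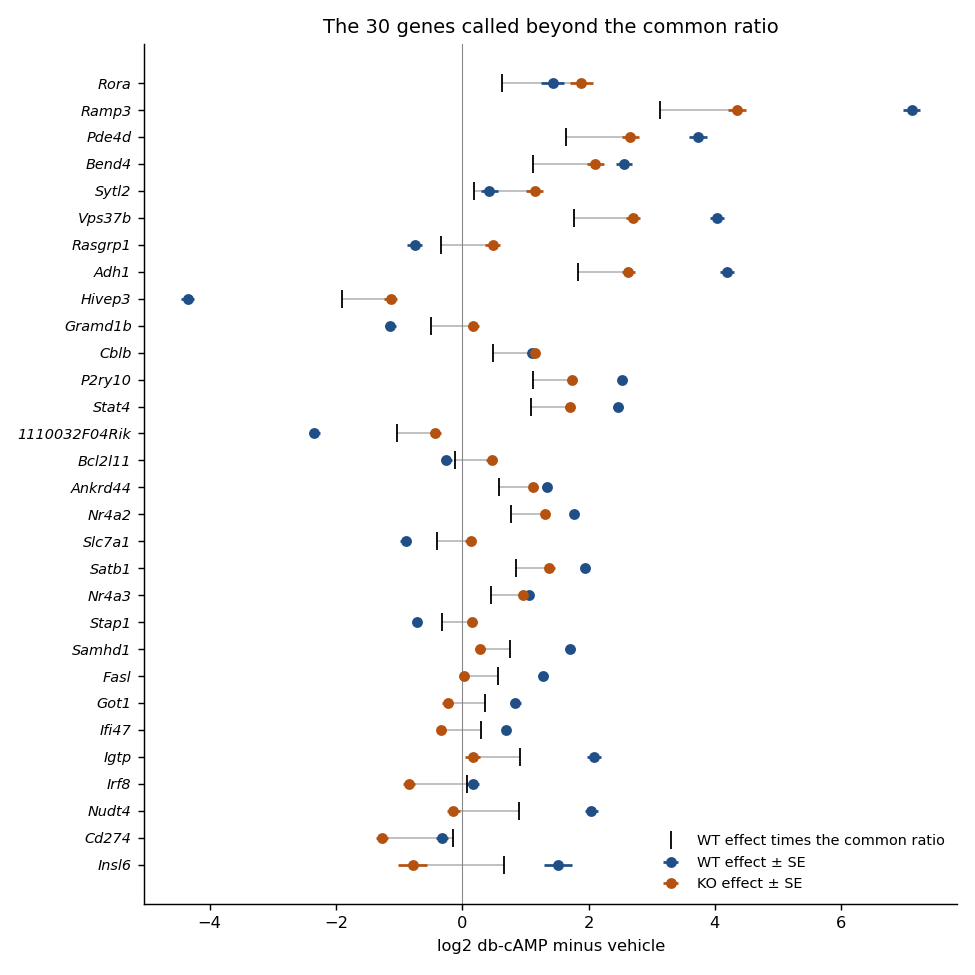
Log2 effect of db-cAMP ± SE in WT (blue) and IFN-γR1 KO cells (orange) for the 30 genes called beyond the common ratio, with a tick at 0.439 times the WT effect. The KO effect lies right of the tick for the 21 genes from Stap1 up to Rora and left of it for the 9 genes from Samhd1 down to Insl6.

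The 12 highest and 12 lowest interactions among called genes were mostly dim genes. The lowest were Adh7 (-4.21), Sardh (-4.09), Alox5 (-3.78), Zfp395 (-3.41), Sytl1 (-3.17), Ifit1 (-2.95), Iqca (-2.87), Hif3a (-2.81), Sgip1 (-2.79), Syt13 (-2.77), Ramp3 (-2.77) and 3110021A11Rik (-2.72). Ramp3 alone among these was above the array median on all 8 arrays, and Adh7, for example, read 33.2 and 100 in KO with vehicle and 81.9 and 9.45 with db-cAMP. The highest were Zfp354c (3.43), Hivep3 (3.22), Adamts16 (3.20), Crocc (3.02), Ppargc1b (2.91), Srrm4 (2.86), Farp1 (2.85), Rftn2 (2.78), Zbed5 (2.54), Zfp202 (2.45), Adamts6 (2.36) and Wfikkn2 (2.27). Hivep3 and Adamts6 were above the median on all 8 arrays. Adamts6, a secreted metalloprotease, read 1480 and 1452 in WT with vehicle and 166 and 150 with db-cAMP, against 1462 and 1394 and then 822 and 803 in KO. The vehicle groups overlapped and the db-cAMP groups lay far apart, an interaction of 2.36 ± 0.16 (adjusted p = 3.64e-06, limma). The other of the 2 tested Adamts6 probe sets had an interaction of 0.07 and was not called. Ppargc1b, a coactivator of mitochondrial genes, read 246 and 234 against 20.5 and 16.6 in WT and 264 and 325 against 184 and 249 in KO, a WT decrease to dim signals. Of all 1425 called genes, 40 were below the median on at least 1 array.

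Other readings moved with genotype or with db-cAMP, and their part in these results was not tested. Poly-A control transcripts, added to the RNA before labelling, read 830 to 1220 on WT arrays and 2480 to 3500 on KO arrays. The 3′ to 5′ signal ratio of 18S rRNA was 0.353 to 0.441 on WT and 0.513 to 0.623 on KO arrays. Hybridization controls were lower on KO than on WT arrays (ratio 0.657), and the 18S rRNA signal was higher with db-cAMP in both genotypes (0.49 and 0.46 on the log2 scale). The interactions of these readings were -0.05 for the poly-A controls, -0.14 for the hybridization controls, -0.03 for the 18S ratio, -0.035 for the 18S signal, 0.11 for the Gapdh ratio and -0.06 for the Actb ratio. The labels give no batch, so a step that differed between the 4 WT and 4 KO arrays cannot be told apart from genotype. Of the markers of the labelled cell type, Cd3d read 19990 to 29410, while Cd4 read 253 to 539. Of the CD8 T cell markers, Cd8a read 110 to 150 and Cd8b1 139.5 to 366.6. Cd8b1 (361.8) read above Cd4 (339.7) on WT vehicle replicate 1 and below it on the other arrays. T cell identity genes summed to 92310 to 112000 on the 8 arrays, with Zap70 (0.77), Cd3e (0.50) and Cd5 (0.44) called higher and Cd247 (-0.44) lower. B cell markers, 1 of 9 tested called (Ighm, 0.89), summed to 10210 and 11490 in WT with vehicle, 6123 and 5483 with db-cAMP, 8716 and 9591 in KO with vehicle and 8747 and 7754 with db-cAMP; nearly all of this was Ighm, whose value turned to -0.28 with the mean of its probe sets. Of 3 tested NK cell markers, Cd160 (1.10) was called, and the sums were 1281 to 1505 in WT and 1271 to 1933 in KO. None of the CD8 T cell (2 tested), macrophage and neutrophil (5) or dendritic cell markers (6) was called, their sums lay at 270 to 516, 548 to 732 and 1366 to 2682, and no erythroid or platelet marker was bright enough to test. In bulk samples fewer cells of a type and less RNA per cell cannot be told apart.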

How the data were processed

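RNA of CD4 T cells was measured on 8 Affymetrix arrays (4 groups of 2). The authors deposited 1 intensity per probe set (45101), made with MAS5 per the submitters' processing notes; in the file the mean of the middle 96% of intensities was 500 on every array, so the deposited values are scaled per array. Of the probe sets, 34945 had 1 gene symbol in the platform annotation, 932 several and 9160 none; those with several or none, and 64 controls, were left out of gene results. Some genes of the lists have no probe set among these and are not analysed here.

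Values were taken as log2(intensity + 5.48), 5.48 being the 10th percentile of all values. A gene was tested if above the array median on at least 2 arrays. limma 3.58.1 (R 4.3.3) was fitted to the 8 arrays with a mean for each of the 4 groups, eBayes with an intensity trend, and Benjamini-Hochberg adjustment over all genes tested; "called" means an adjusted p under 0.05. The common ratio was taken as fixed in its test. On simulated data the ratio over called genes came out above the one simulated, and that over all genes close to it. Figures used matplotlib 3.10.9.

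Genes named were the 12 highest and 12 lowest called interactions, the 8 highest and 8 lowest beyond the ratio, up to 4 called members of each list by size, up to 6 called in opposite directions, and a fixed set of receptor, IFN-γ and cAMP genes; other list members and other genes beyond the ratio are named after their values were seen. The members and the 28 lists were chosen with earlier results of these data known. Replicates of a group correlated at 0.961 to 0.977, with 0 identical values, and replicate numbers did not pair the samples (correlations of deviations -0.0199 to 0.0206). Alternatives were 19 planned settings and 1 added after seeing the data, the ratio over all genes tested. Precision is limited by 2 arrays per group.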

Additional observations from a re-analysis of the deposited data

Results flagged for a closer look

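In 7 genes (0.0579% of those tested) db-cAMP was called in both genotypes in opposite directions, and the interaction tests that difference. Insl6 (interaction -2.30) and Ifi47 (-1.03) rose in WT and fell in KO cells. Rasgrp1 (1.24), an exchange factor that activates Ras after T cell receptor signalling, Otud1 (0.87), Bcl2l11 (0.72), which encodes the pro-apoptotic protein BIM, Gpr183 (0.64), an oxysterol receptor that guides lymphocyte position, and Supt16 (0.63), a histone chaperone subunit, fell in WT and rose in KO cells. Rasgrp1 read 1181 and 1067 against 628 and 699 in WT, and 1288 and 1077 against 1589 and 1708 in KO. Bcl2l11 read 2903 and 3250 against 2557 and 2588 in WT, and 4089 and 4039 against 5260 and 5970 in KO. Without KO db-cAMP replicate 1 only 1 of the 7 met this criterion, and the other probe sets of Supt16 and Bcl2l11 reached -0.53 and -0.16.

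Outside the gene measurements, the poly-A control signal was 2.89 times as high on KO as on WT arrays.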

How the results depend on the processing

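Of 2803 alternative values of the interaction of 149 named genes, 2387 kept direction and side of the threshold, 405 lost the call, 2 gained it and 9 turned sign: with the mean of probe sets Bend4 (0.18), Hif1a (0.065), Ighm (-0.28), Pde4d (0.33), Ptpn6 (-0.027), Rora (-0.72), Slc7a1 (-0.13) and Tgfbr2 (0.007), and with quantile normalization Nr4a3 (0.05). Beyond the ratio, Hivep3 (-0.054), Slc7a1 (-0.03), 1110032F04Rik (-0.12) and Ankrd44 (-0.23) turned with the mean of probe sets. With that mean, 709 interactions were called (404 higher, 305 lower; 651 shared with the 1425), 14 beyond the ratio (9 and 5), 497 KO effects, 3 opposite directions, and 2 MHC class I, 6 cAMP target and 6 quiescence genes. Without the intensity trend the counts were 261 (145 and 116; 235 shared; 2477 at an unadjusted p under 0.05), 0 beyond the ratio in either direction, 188 KO effects, 4 opposite directions, and 2 guanylate-binding, 3 immunity-related GTPase, 0 MHC class I, 3 cAMP target, 6 activation, 5 quiescence and 10 ribosome biogenesis genes. Without the filter on dim genes 3 guanylate-binding genes were called, and with quantile normalization 5 MHC class I genes. With every probe set as a feature, 6385 WT and 6112 mean effects were called. With the ratio over all genes tested (0.344, an alternative chosen after seeing the data), 61 genes were called beyond it, 49 higher. Apart from the ratio over all genes, where the ratio itself differs, the cause of these changes was not tested.

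Leaving out 1 array at a time gave 892 to 1341 called interactions (494 to 827 higher, 397 to 561 lower), a ratio of 0.386 to 0.487, 4 to 31 genes beyond it (0 to 23 higher, 3 to 8 lower), 3463 to 4132 WT, 444 to 1098 KO and 3358 to 3972 mean effects, and 1 to 7 genes with opposite directions. The share of genes with the larger effect in WT was 85.7% to 93.4%, against 91.4%. Over the same sets the lists gave 3 to 5 guanylate-binding, 5 immunity-related GTPase, 3 to 7 MHC class I, 10 to 13 cAMP target, 12 to 16 activation, 9 to 11 quiescence and 21 to 26 ribosome biogenesis genes. With the replicate number as a block 1373 interactions were called, 1339 of them shared, and the numbers did not pair the samples. Higher calls made up 51.9% to 57.4% over the offset, filter and scaling alternatives. With 2 arrays a group the median SE of an interaction was 0.245, which limits what could be called, more so for dim genes.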
